A study of Mus musculus with 21 samples.

Results

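The genes described here encode the kinase mTOR, the proteins that set its complexes apart, its inhibitors and amino acid sensors, and the kinase that starts autophagy. They were Mtor, Rptor, Rictor, Tsc1, Tsc2, Deptor, Sesn1, Ddit4, Rragd and Ulk1, chosen by name and found by their Ensembl identifiers as 10 of the 55450 genes in the table of counts. All 10 had counts in every mouse and were among the 17309 genes tested. RNA was sequenced from the left ventricle of 21 male mice of strain 129S6/SvEv, each giving 1 sample. Wild-type littermates (WT) and mice heterozygous for the R403Q mutation of the cardiac myosin heavy chain (labelled Myh6+/R404Q) received a control diet (CD) or the same diet with empagliflozin (EMPA, an inhibitor of the sodium-glucose cotransporter SGLT2) at 0.15 mg per g of diet. The groups were WT-CD (n = 5), R403Q-CD (n = 7), WT-EMPA (n = 5) and R403Q-EMPA (n = 4). The mice began the diet at 9 to 10 weeks of age, and the sources differ on its length, which the sample labels give as 16 weeks and the methods of the study as 2 weeks, and the description of the series places the RNA at 12 weeks of age. CD and EMPA mice shared 0 cages, so that diet and cage cannot be told apart.

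mTOR is a protein kinase that drives protein synthesis and cell growth when amino acids, energy and insulin signals are present, and that holds autophagy back. It works in 2 complexes, of which complex 1 (mTORC1) contains raptor and complex 2 (mTORC2) contains rictor. In the heart mTORC1 is known for its part in hypertrophy, and autophagy for the removal of damaged mitochondria and proteins. The tuberous sclerosis complex of TSC1 and TSC2 restrains mTORC1 by turning off the small GTPase Rheb, the Rag GTPases bring mTORC1 to the lysosome when amino acids are present, and mTORC1 phosphorylates and restrains ULK1, which otherwise begins the formation of autophagosomes. These controls act largely on proteins, whereas the values here are RNA levels.

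Libraries held 23491535 to 43539684 counts (median 33329649), so that a count of 0 would have allowed a level of up to 0.0689 to 0.128 CPM of the library total. All other CPM are scaled by TMM, and intervals cover counting error and the spread between mice only. Summed markers of cardiomyocytes ran from 46200 to 96400 CPM over all mice, and those of the atria from 2.12 to 608 CPM. One library stood apart: R403Q-CD replicate 2 had a median Spearman correlation of 0.9682 with the others, against 0.9856 to 0.9919 for the other 20, and 11000 CPM of Nppa, the gene of atrial natriuretic peptide, against 883 to 3830 CPM in the other 6 R403Q-CD mice. It was the lowest of its group for 9 of the 10 genes, so values without it stand beside the results that turn on it. On the EMPA side, R403Q-EMPA replicate 4 was the highest of the 4 mice of its group for 9 of the 10 genes. It also had the lowest library total, 23491535 counts. In whole tissue, fewer cells of a type and less RNA per cell cannot be told apart.

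The first result is the order of the levels. Per kilobase of exon, Sesn1, the gene of the leucine sensor sestrin 1, had the highest mean level of the 10 genes, 97.9 ± 17 CPM per kb (SD, n = 21). Ddit4 followed with 71.5 ± 17.9 CPM per kb and Rragd with 40.1 ± 4.75 CPM per kb. Ulk1 had 17.5 ± 3.6 and Tsc2 13.5 ± 2.0 CPM per kb, and the other 5 genes were lower. Mtor had 7.23 ± 0.847, Tsc1 5.34 ± 0.887, Rptor 3.07 ± 0.361, Deptor 2.92 ± 0.356 and Rictor 2.22 ± 0.245 CPM per kb. Neighbours in this order were separated in all 21 mice for 6 of the 9 steps. Sesn1 was above Ddit4 in 19 mice, Ddit4 above Rragd in 20, and Rptor above Deptor in 15, the last with a mean ratio of 1.05. Steps of this order were not tested. The length is that of all annotated exons of a gene together, on which the order of close genes depends.

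**Figure D1:**
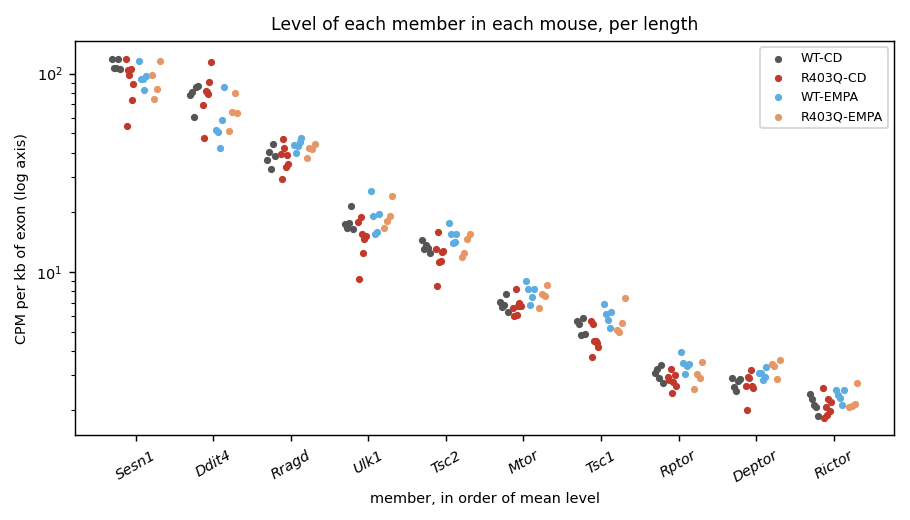
Level of each of the 10 genes in each of the 21 mice, as CPM per kb of exon on a log axis, in order of the mean, with a point per mouse coloured by group. Mean levels run from 97.9 CPM per kb for Sesn1 to 2.22 CPM per kb for Rictor, and the points of the 4 groups overlap within every gene.

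Promoters were looked up because several of these genes varied together between mice. RefSeq promoters on GRCm38.p6 (250 bases before to 50 after the start of transcription) were held for 9 of the 10 genes. They were searched on both strands for the E-box CACGTG, the lysosomal gene core TCACGTGA, which contains the E-box, the D-box TTATGTAA of clock output factors, the cyclic AMP element TGACGTCA and the FOXO letters TGTTTAC. Of 32851 promoters in the table, 7.15% held the E-box, 0.974% the lysosomal core, 0.938% the D-box, 1.79% the cyclic AMP element and 3.65% the FOXO letters. Among the windows of these genes, the first Sesn1 promoter held the FOXO letters, at a position 22 bases past the start of transcription, and no other match was found. That window is shown with the match in capitals, beside those of Tsc2 and Ulk1, the pair most closely related across mice together with Mtor and Rptor.
Sesn1, chr10:41810324-41810623, plus strand: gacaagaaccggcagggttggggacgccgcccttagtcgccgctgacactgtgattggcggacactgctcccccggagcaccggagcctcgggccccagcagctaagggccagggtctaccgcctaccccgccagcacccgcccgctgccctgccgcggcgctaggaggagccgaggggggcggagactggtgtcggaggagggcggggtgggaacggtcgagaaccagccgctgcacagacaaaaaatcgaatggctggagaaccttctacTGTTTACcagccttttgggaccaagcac
Tsc2, chr17:24632578-24632877, minus strand: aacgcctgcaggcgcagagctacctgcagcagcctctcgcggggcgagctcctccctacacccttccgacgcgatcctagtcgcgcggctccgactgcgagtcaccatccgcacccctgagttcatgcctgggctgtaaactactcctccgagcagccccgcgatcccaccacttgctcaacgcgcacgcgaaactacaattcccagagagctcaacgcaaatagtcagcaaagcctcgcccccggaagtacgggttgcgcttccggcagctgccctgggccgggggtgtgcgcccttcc
Ulk1, chr5:110810032-110810331, minus strand: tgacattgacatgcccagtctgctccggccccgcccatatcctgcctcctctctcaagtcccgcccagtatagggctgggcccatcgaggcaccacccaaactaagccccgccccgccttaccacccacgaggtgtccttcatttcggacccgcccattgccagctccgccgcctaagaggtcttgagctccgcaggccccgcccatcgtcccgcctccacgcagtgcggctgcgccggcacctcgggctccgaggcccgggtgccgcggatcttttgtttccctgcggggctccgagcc

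The question put to the R403Q mutation was whether RNA of these genes differed between R403Q and WT hearts. In R403Q-CD against WT-CD 0 of the 10 genes passed the test (edgeR quasi-likelihood, Benjamini-Hochberg adjusted p under 0.05), against 1.44% of all genes tested. Of their log2 fold changes 9 were below 0 and 1 above, with a median of -0.07 beside 0.011 for all genes, and ran from -0.28 to 0.05. Without R403Q-CD replicate 2 there were 6 below 0 and 3 above, with 1 at 0 to 2 decimals and a median of -0.04. None of the 10 had an unadjusted p under 0.05, which 20.9% of all genes had. Averaged over diets, R403Q against WT again gave 0 of the 10 genes, against 10.9% of all genes, and R403Q-EMPA against WT-EMPA gave 0 against 0.0578%.

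Positions of genes are on GRCm38. Among the subunits of the complexes, Mtor itself (ENSMUSG00000028991, chr4:148448611-148557683, plus strand) had 70.9, 67.5, 68.6, 78.5 and 63.2 CPM in the WT-CD mice, and 60.9 to 82.7 CPM (median 67.9) in the R403Q-CD mice. The groups overlap almost fully, with a log2 fold change of -0.03 (95% confidence interval -0.2 to 0.14, adjusted p = 0.868, edgeR). Rictor, the defining subunit of mTORC2 (ENSMUSG00000050310, chr15:6708379-6800401, plus strand), had 31.8 to 41.0 CPM in WT-CD and 31.2 to 43.7 CPM (median 35.1) in R403Q-CD, with a log2 fold change of -0.02. Rptor, the scaffold of mTORC1 that recruits its substrates (ENSMUSG00000025583, chr11:119602905-119899576, plus strand), had the smallest p of the genotype comparison averaged over diets. Its levels were 41.7, 43.4, 39.1, 45.4 and 37.0 CPM in WT-CD, 53.4, 46.7, 41.0, 44.9 and 45.9 CPM in WT-EMPA, 32.9 to 43.4 CPM (median 38.3) in R403Q-CD, and 34.5, 41.1, 39.1 and 47.1 CPM in R403Q-EMPA. The R403Q mice were lower on average on both diets, and their range overlapped that of the WT mice. The log2 fold change of Rptor was -0.15 (SE 0.0609, adjusted p = 0.0987, edgeR), and it passed without R403Q-EMPA replicate 4 (-0.19, adjusted p = 0.0402). That fit called 2099 of all genes, in place of 1883. Over the 21 fits that each left out a mouse, the adjusted p of Rptor ran up to 0.221 (edgeR).

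Of the inhibitors, Tsc1 (ENSMUSG00000026812, chr2:28641228-28691167, plus strand) encodes the partner that stabilizes TSC2. It had 67.0, 64.7, 56.7, 68.9 and 57.7 CPM in WT-CD and 43.9 to 66.5 CPM (median 52.9) in R403Q-CD. Of the 7 R403Q-CD mice 5 were below all WT-CD mice, and the other 2 lay within the range of WT-CD. The log2 fold change was -0.21 (95% confidence interval -0.43 to 0.01, adjusted p = 0.261, edgeR), and -0.17 without R403Q-CD replicate 2. Tsc2 (ENSMUSG00000002496, chr17:24595816-24632630, minus strand), the GTPase-activating subunit, had a log2 fold change of -0.14, which was -0.07 without that mouse. Its exons share 693 bases, or 7.2% of its length, with Pkd1 on the opposite strand, and the counting is described only as being of the same strand.

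Sesn1 (ENSMUSG00000038332, chr10:41809935-41908424, plus strand) had 475, 426, 428, 469 and 422 CPM in WT-CD and 218 to 470 CPM (median 391) in R403Q-CD. The WT-CD mice lay close together, and 6 of the 7 R403Q-CD mice were at or below the 422 CPM of the lowest WT-CD mouse to the digits given. The coefficient of variation was 5.74% in WT-CD and 23.5% in R403Q-CD. Its log2 fold change was -0.28 (95% confidence interval -0.57 to 0.02, adjusted p = 0.266, edgeR) and -0.19 without R403Q-CD replicate 2. Ulk1, the kinase that starts autophagy (ENSMUSG00000029512, chr5:110784488-110810097, minus strand), behaved alike in size. It had 113, 108, 114, 139 and 107 CPM in WT-CD and 59.8 to 123 CPM (median 97.9) in R403Q-CD, with a log2 fold change of -0.28 (adjusted p = 0.288, edgeR), and -0.19 without that mouse. Neither gene passed with or without it. The remaining genes had log2 fold changes between -0.02 and 0.05 in this comparison, and between 0.03 and 0.14 without that mouse.

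**Figure D2:**
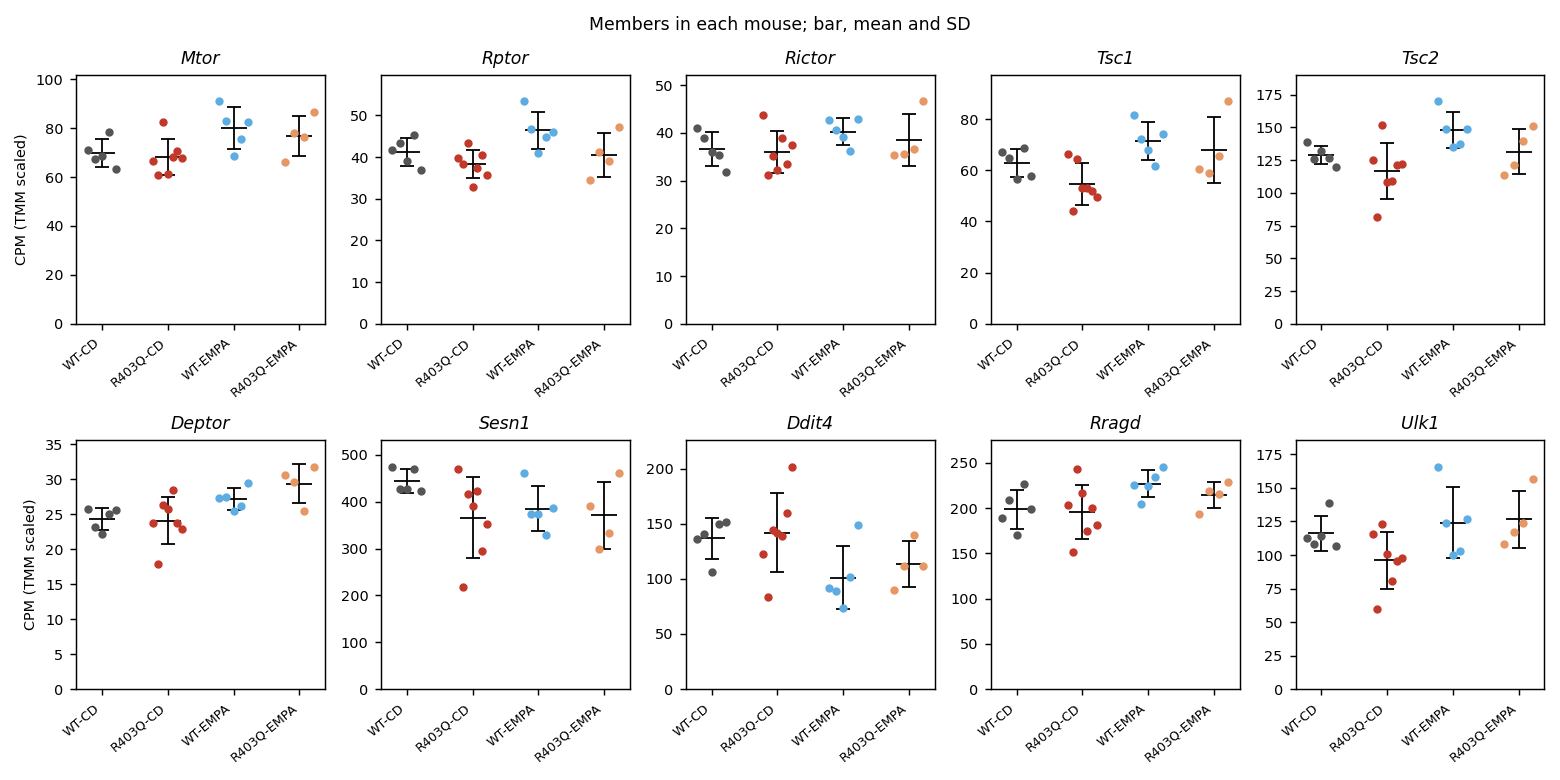
CPM (TMM scaled) of each gene in each mouse, by group, with the mean and SD as bars and an axis that starts at 0. The lowest R403Q-CD point for 9 of the 10 genes is the same mouse, replicate 2.

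The next question was whether the EMPA diet moved these genes. In R403Q-EMPA against R403Q-CD 0 of the 10 genes passed, against 0.0116% of all genes tested, and in WT-EMPA against WT-CD 0 passed, against 0.0289%. At an unadjusted p under 0.05 there were 3 of the 10 genes in the first comparison, where 13.4% of all genes had one, and 2 in the second, where 11% did. Averaged over genotypes, EMPA against CD gave 0 of the 10 genes against 2.91% of all genes. Here 7 of the 10 had an unadjusted p under 0.05, where 20.1% of all genes did, and the median log2 fold change was 0.17 beside -0.008 for all genes. The 10 genes varied together between mice (median r = 0.51, below), so they are not separate observations in this count. Of the 10, 8 were above 0, and Sesn1 and Ddit4 were below. In R403Q-EMPA against R403Q-CD, leaving out each mouse in turn gave 0.18 to 0.38 for Tsc1 and 0.27 to 0.46 for Ulk1.

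Deptor (ENSMUSG00000022419, chr15:55112317-55259271, plus strand) encodes a subunit of both complexes that inhibits the kinase, and had the smallest p. It had 25.8, 23.1, 22.2, 25.0 and 25.6 CPM in WT-CD and 27.3, 27.4, 25.4, 26.2 and 29.5 CPM in WT-EMPA. In R403Q-CD it had 17.9 to 28.4 CPM (median 23.7), and in R403Q-EMPA 30.6, 29.6, 25.5 and 31.8 CPM. In all, 3 of the 4 R403Q-EMPA mice were above every R403Q-CD mouse. The log2 fold change averaged over genotypes was 0.22 (95% confidence interval 0.09 to 0.36, adjusted p = 0.0628, edgeR). It stood at 0.29 in R403Q (adjusted p = 0.204) and 0.16 in WT mice (adjusted p = 0.548). Deptor passed by DESeq2 (0.22, adjusted p = 0.0319) and without R403Q-CD replicate 2 (0.19, adjusted p = 0.0374), replicate 3 (0.23, adjusted p = 0.0428) or replicate 5 (0.24, adjusted p = 0.0459). These settings called 984, 725, 929 and 338 of all genes in turn, where the main fit called 504. Over the 21 fits that each left out a mouse, the adjusted p of Deptor ran up to 0.153 (edgeR).

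Tsc1 had 81.8, 72.1, 67.8, 61.8 and 74.3 CPM in WT-EMPA and 60.4, 58.8, 65.7 and 87.0 CPM in R403Q-EMPA. One R403Q-EMPA mouse was above all others of the study, and the remaining 3 lay within the range of the R403Q-CD mice. The log2 fold change averaged over genotypes was 0.25 (95% confidence interval 0.08 to 0.42, adjusted p = 0.0872, edgeR), and Tsc1 passed without R403Q-CD replicate 1 (0.28, adjusted p = 0.0479) or replicate 3 (0.27, adjusted p = 0.0472). Those 2 fits called 679 and 929 of all genes, in place of 504. Over the 21 fits that each left out a mouse, the adjusted p of Tsc1 ran up to 0.232 (edgeR). The value of Tsc2 was 0.18 (adjusted p = 0.206).

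Ddit4 (ENSMUSG00000020108, chr10:59949669-59951834, minus strand), also called REDD1, encodes a stress-induced inhibitor of mTORC1 that acts through the TSC complex and that glucocorticoids are known to induce. It had 136, 141, 106, 150 and 152 CPM in WT-CD and 91.5, 89.1, 73.7, 102 and 149 CPM in WT-EMPA. Of the 5 WT-EMPA mice 4 were below all WT-CD mice. In R403Q-CD it had 83.6 to 202 CPM (median 142), and in R403Q-EMPA 89.7, 112, 140 and 112 CPM. The R403Q groups overlapped. The log2 fold change averaged over genotypes was -0.38 (95% confidence interval -0.66 to -0.1, adjusted p = 0.117, edgeR), -0.44 in WT (adjusted p = 0.403) and -0.32 in R403Q mice (adjusted p = 0.468), and Ddit4 passed without R403Q-CD replicate 2 (-0.43, adjusted p = 0.0369). That fit called 725 of all genes, in place of 504. Over the 21 fits that each left out a mouse, the adjusted p of Ddit4 ran up to 0.21 (edgeR). Sesn1, the other gene below 0, was at -0.09 (adjusted p = 0.676, edgeR), at -0.14 without R403Q-CD replicate 2 and between -0.16 and -0.05 with each mouse left out in turn.

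Mtor had 91.0, 83.0, 68.5, 75.6 and 82.5 CPM in WT-EMPA and 66.3, 78.2, 76.2 and 86.6 CPM in R403Q-EMPA. Its log2 fold change averaged over genotypes was 0.19 (95% confidence interval 0.06 to 0.31, adjusted p = 0.103, edgeR), and it passed without R403Q-CD replicate 3 (0.21, adjusted p = 0.036). That fit called 929 of all genes, in place of 504. Over the 21 fits that each left out a mouse, the adjusted p of Mtor ran up to 0.241 (edgeR). Rptor and Rictor each had a log2 fold change of 0.12. Rragd (ENSMUSG00000028278, chr4:32983037-33022180, plus strand), the Rag GTPase whose gene is a known target of the MiT/TFE factors, had 205 to 246 CPM in WT-EMPA against 170 to 227 CPM in WT-CD, with a log2 fold change of 0.16 (adjusted p = 0.203). Ulk1 had 166, 124, 100, 103 and 127 CPM in WT-EMPA and 108, 117, 124 and 157 CPM in R403Q-EMPA. Its log2 fold change was 0.39 in R403Q (adjusted p = 0.279) and 0.09 in WT mice (adjusted p = 0.874), a difference of 0.3 (95% confidence interval -0.17 to 0.77, adjusted p = 0.999, edgeR). With each mouse left out in turn, the value of Ulk1 in WT mice ran from -0.03 (without WT-EMPA replicate 1) to 0.16, and the difference from 0.18 (without R403Q-EMPA replicate 4) to 0.43 (without WT-EMPA replicate 1). For the response to EMPA of R403Q mice against that of WT mice, 0 of the 10 genes and 0% of all genes passed by edgeR, with 567 genes at an unadjusted p under 0.05, and 0 passed by DESeq2, with 759.

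**Figure D3:**
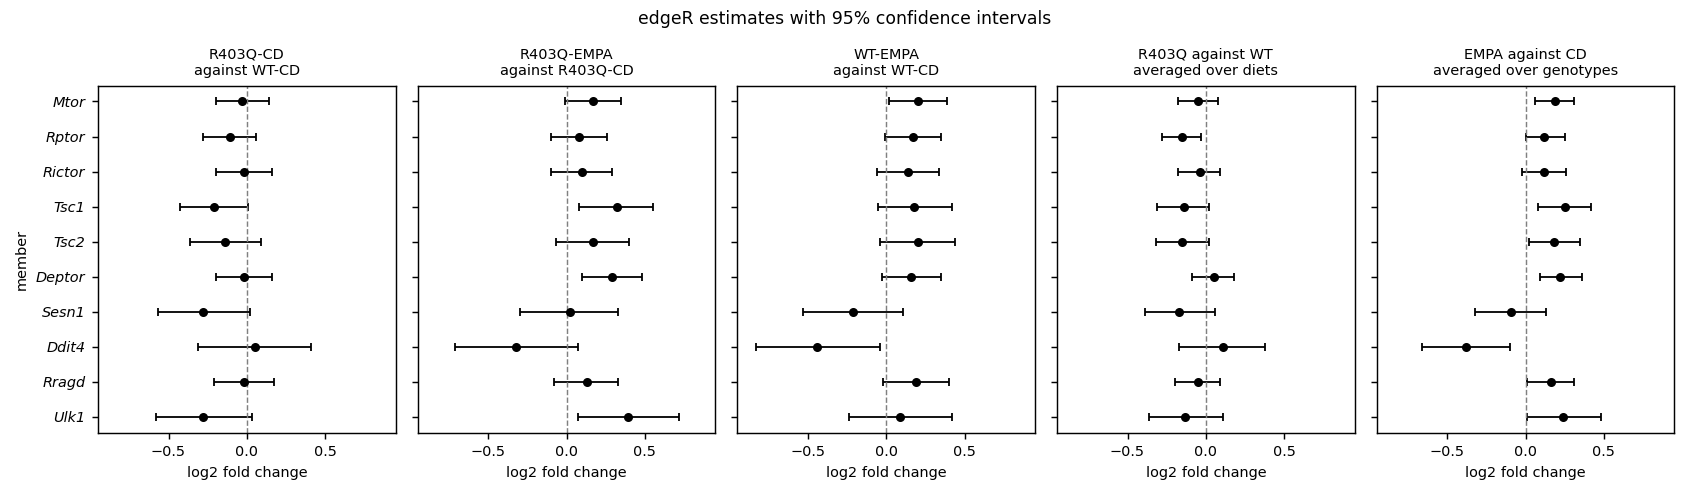
Log2 fold change of each gene (points) with its 95% confidence interval (bars) in 5 comparisons, from the edgeR fit of all 21 mice. In EMPA against CD averaged over genotypes, 8 points are above 0 and the estimates run from -0.38 for Ddit4 to 0.25 for Tsc1.

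Other genes moved with the diet, and their part in these values was not tested. Averaged over genotypes, where 2.91% of all genes passed in either direction, 4 of 10 genes of a clock list with the Per genes and Dbp fell (Ciart, Dbp, Hlf and Per1) and 2 of 5 of a clock list with Arntl rose (Arntl and Clock). Dbp was at -1.02 (adjusted p = 0.0289) and Arntl at 1.7 (adjusted p = 0.0244, edgeR). The sum of the former list ran from 1020 to 1230 CPM in WT-CD, 842 to 1150 CPM in R403Q-CD, 615 to 1090 CPM in WT-EMPA and 640 to 912 CPM in R403Q-EMPA, and none was at 0. Of 11 glucocorticoid-responsive genes 1 rose and 2 fell. Of 5 blood genes 4 rose, with sums of 706 to 1280 CPM in WT-CD, 877 to 1720 CPM in R403Q-CD, 1240 to 2000 CPM in WT-EMPA and 1210 to 2660 CPM in R403Q-EMPA. Of 5 hypertrophy genes 1 rose, Myh7 (0.53, adjusted p = 0.0139, edgeR), and the other 4 were below 0. Of 6 smooth muscle and pericyte markers 0 passed, and all 6 were below 0, with a median of -0.35.

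Of the pathway around these genes, 101 further genes were listed by role and all were tested. In EMPA against CD averaged over genotypes 1 rose and 3 fell, or 3.96% against 2.91% of all genes, and the median log2 fold change of the 101 was 0.0. Here and below, the genes that passed are shown because they did so in these same mice. Groups of theirs that stand apart describe the same values and are no further support. The share of all genes with groups apart was not counted. Both of the mTORC1 substrates among 10 that passed are repressors of cap-dependent translation, which mTORC1 inactivates, and they moved in opposite directions. Eif4ebp1, which encodes 4E-BP1, had 126, 112, 121, 128 and 130 CPM in WT-CD and 108, 92.3, 108, 97.7 and 97.8 CPM in WT-EMPA, so that these groups did not overlap. In R403Q mice it had 114 to 145 CPM (median 130) on CD and 129, 107, 114 and 121 CPM on EMPA, and these groups overlapped. It fell by 0.21 on the log2 scale (adjusted p = 0.0272, edgeR) and passed in 16 of 21 fits that each left out a mouse. Eif4ebp2 had 109 to 116 CPM in WT-CD and 142, 134, 117, 129 and 151 CPM in WT-EMPA, with no overlap. It had 74.6 to 127 CPM (median 97.1) in R403Q-CD and 115, 107, 124 and 125 CPM in R403Q-EMPA, and rose by 0.27 (adjusted p = 0.0391). That call held in 8 of the 21 fits, with adjusted p up to 0.103, and in 4 of 5 other settings (up to 0.0501).

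Castor1, the arginine sensor that restrains mTORC1, was the only one of 15 genes of the GATOR complexes and amino acid sensors to pass. It had 7.43, 8.82, 5.78, 6.29 and 10.6 CPM in WT-CD and 4.54, 6.79, 4.88, 6.27 and 7.21 CPM in WT-EMPA. In R403Q mice it had 5.87 to 9.83 CPM (median 8.03) on CD and 5.4, 4.68, 5.68 and 5.6 CPM on EMPA, and every R403Q-EMPA mouse was below every R403Q-CD mouse. It fell by 0.51 on the log2 scale (adjusted p = 0.0313, edgeR; 15 of 21 fits). Atg101, a subunit of the ULK1 complex, had 21.5 to 25.6 CPM in WT-CD, 22.6 to 28.3 CPM (median 23.7) in R403Q-CD, 18.1 to 21.4 CPM in WT-EMPA and 23.2, 19.9, 20.3 and 18.7 CPM in R403Q-EMPA. The WT groups did not overlap, and 1 R403Q-EMPA mouse lay within the R403Q-CD range. It fell by 0.25 (adjusted p = 0.0211; 19 of 21 fits), while Ulk1, the kinase of the same complex, had 0.24 (adjusted p = 0.228).

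**Figure D4:**
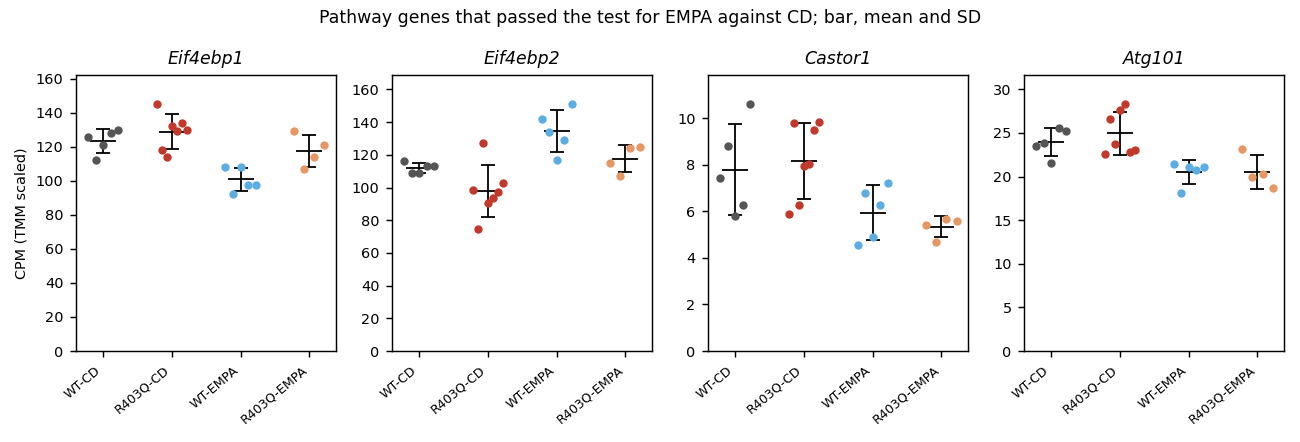
CPM (TMM scaled) in each mouse of the 4 pathway genes that passed for EMPA against CD averaged over genotypes, with the mean and SD as bars. Eif4ebp1, Castor1 and Atg101 fell, by 0.21, 0.51 and 0.25 on the log2 scale, and Eif4ebp2 rose by 0.27.

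For the mutation, in R403Q-CD against WT-CD 1 of the 101 rose and 0 fell, or 0.99% against 1.44% of all genes. Asns, asparagine synthetase and a target of the stress factor ATF4, had 7.09 to 9.16 CPM in WT-CD and 9.02 to 15.2 CPM (median 11.5) in R403Q-CD, where 6 of the 7 mice exceeded the highest WT-CD value, and rose by 0.5 (adjusted p = 0.0365, edgeR), a call that held in 6 of 12 fits without a mouse and in 5 of 7 other settings (adjusted p up to 0.0766). Averaged over diets, 5 of the 101 rose and 3 fell, or 7.92% against 10.9% of all genes. Asns (0.41), Psat1 (0.53) and Phgdh (0.75), whose enzymes make asparagine and serine, rose, and Shmt2, the mitochondrial enzyme that turns serine to glycine, fell by 0.21. These are the genes that passed among 11 listed ATF4 targets. Of the 11, 6 were above 0 and 5 below, with a median of 0.02. Prr5, a subunit of mTORC2, rose by 0.39, and Lamtor5, a subunit of the Ragulator that anchors the Rag GTPases, by 0.19. Akt2 fell by 0.16, and Atg9a, whose protein brings membrane to the forming autophagosome, by 0.28. Their adjusted p-values lay between 0.00937 for Asns and 0.0463 for Akt2, and with a mouse left out in turn the calls held in 5 of 21 fits for Phgdh to all 21 for Asns. In 6 other settings the calls of Asns and Shmt2 held in all, those of Atg9a, Prr5 and Phgdh in 5, those of Akt2 and Lamtor5 in 4 and that of Psat1 in 3. Scaled to library size alone the split of calls over all genes averaged over diets was 1909 higher and 443 lower, in place of 1091 and 792.

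Markers of other cells moved with the mutation, and their part in these values was not tested. Averaged over diets, where 10.9% of all genes passed in either direction, 5 of 6 macrophage markers rose in R403Q, with sums of 195 to 255 CPM in WT-CD, 249 to 362 CPM in R403Q-CD, 181 to 256 CPM in WT-EMPA and 269 to 361 CPM in R403Q-EMPA, none at 0. Of 7 fibroblast markers 2 rose, with sums of 1210 to 2020, 1610 to 5990, 1070 to 1670 and 1750 to 2330 CPM in the same groups. Of 8 cardiomyocyte genes 1 fell and 0 rose. It was Myh6, the gene that carries the mutation, which fell by 0.39 (adjusted p = 0.0419, edgeR). Of 6 smooth muscle and pericyte markers 0 passed. Of 5 endothelial markers 1 rose with the mutation (Emcn) and 1 with the diet (Kdr), and of 5 adipocyte genes, of which Ucp1 was near 0, 1 rose with the mutation (Fabp4).

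Some lists of the pathway had no gene that passed in any comparison: the TSC partner and Rheb, folliculin and the MiT/TFE factors, and autophagosome conjugation and receptors. Of all genes, 10.9% passed for R403Q averaged over diets, 2.91% for EMPA averaged over genotypes and at most 1.44% in the other comparisons. In lists this short, a count of 0 is near those shares. Of the 3 genes of the TSC partner and Rheb, Tbc1d7, the third subunit of the TSC complex, had the smallest p, with -0.14 in R403Q-CD against WT-CD (adjusted p = 0.268, edgeR). Of 6 genes of folliculin and the MiT/TFE factors, Mitf had -0.28 (adjusted p = 0.233) in that comparison and Fnip1 0.29 (adjusted p = 0.275) in R403Q-EMPA against R403Q-CD. Of 15 genes of autophagosome conjugation and receptors, Gabarap had 0.12 (adjusted p = 0.273) in the former and Gabarapl1 0.29 (adjusted p = 0.445) in the latter.

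Ratios of counts within a mouse, which do not depend on scaling and are not corrected for length, asked whether partners or paralogues shifted against each other. Rictor to Rptor, Tsc1 to Tsc2, Rragd to Rragc, Sesn1 to Sesn3 and Ulk1 to Ulk2 were each compared between 4 pairs of groups, and 0 of the 20 comparisons passed after adjustment. The smallest exact permutation p that the groups allow is 0.00126 for R403Q-CD against WT-CD, 0.00303 for R403Q-EMPA against R403Q-CD and 0.00794 for the others, and at the latter pair of values a single ratio of 20 cannot pass. The ratio of Rragd to Rragc had the smallest p. Its log2 value was 2.07 ± 0.16 (SD, n = 5) in WT-EMPA and 1.82 ± 0.13 (SD, n = 5) in WT-CD, a difference of 0.25 (two-sided exact permutation p = 0.0317, adjusted p = 0.505), and 3 of the 5 WT-EMPA mice were above every WT-CD mouse. Ulk1 to Ulk2 was -0.2 ± 0.34 (SD, n = 7) in R403Q-CD and 0.15 ± 0.15 (SD, n = 4) in R403Q-EMPA, a difference of 0.34 (exact permutation p = 0.0758, adjusted p = 0.505). Without R403Q-CD replicate 2, which had the lowest value of -0.85, the R403Q-CD mean was -0.09 ± 0.2 (SD, n = 6) and the difference 0.24 (exact permutation p = 0.0762, adjusted p = 0.454).

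The genes varied together between mice. Taken as deviations from the group means over 21 mice, all 45 pairs had a positive Pearson's r, with a median of 0.51, which was 0.43 without R403Q-CD replicate 2. Without that mouse 4 pairs were below 0, of which Sesn1 with Ddit4 was lowest (-0.22), and by Spearman's rho 2 pairs were below 0 with it. By both Pearson's r and Spearman's rho, 17 of the 45 pairs passed a permutation test with Benjamini-Hochberg adjustment. Mtor and Rptor had r = 0.87 and rho = 0.8 (adjusted p = 0.00045 and 0.0027), with r = 0.85 without the 2 farthest mice. Tsc2 and Ulk1 had r = 0.87 and rho = 0.81 (adjusted p = 0.00045 and 0.0027), with r = 0.77 without the 2 farthest mice. Ddit4 was the least related, with r = 0.1 to Rptor. All of these values share their library and its scaling. With Myh6, 4 of the 10 genes passed by both measures: Tsc2 (r = 0.9), Ulk1 (0.89), Tsc1 (0.71) and Mtor (0.62). Sesn1 alone passed by both measures with the library total (r = -0.72, rho = -0.66, adjusted p = 0.0062 and 0.018 over 20 relations, permutation test).

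**Figure D5:**
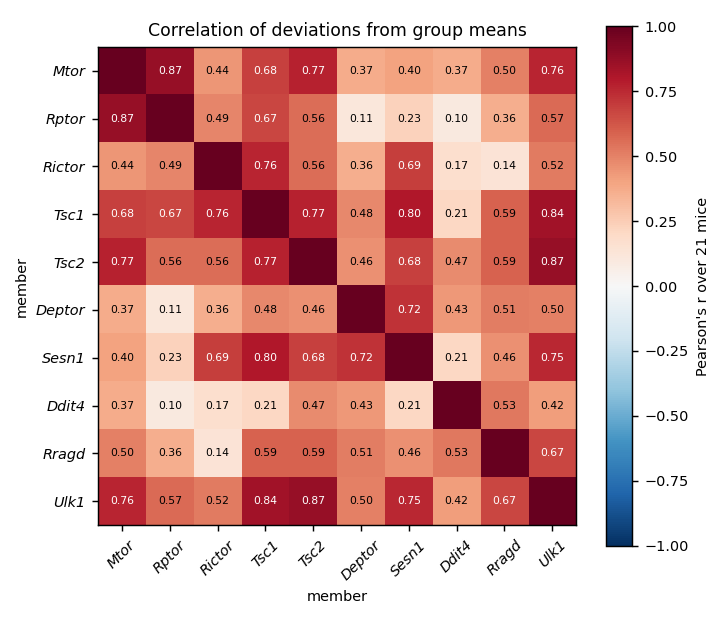
Pearson's r between each pair of the 10 genes over 21 mice, computed on log2 CPM as deviations from group means, on a colour scale from -1 to 1. All 45 pairs are above 0, of which 4 are below 0 without R403Q-CD replicate 2 and 2 by Spearman's rho, and the strongest, at 0.87, are Mtor with Rptor and Tsc2 with Ulk1.

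By patterns over all 21 mice, as a description, Scara5 (r = 0.81) and Nceh1 (0.796) were among the genes closest to Deptor. Those closest to Tsc1 were Asxl1 (r = 0.965), Helz (0.955) and Jmy (0.948), and those closest to Mtor were Scrib (r = 0.918), Bptf (0.916) and Ppp1r12b (0.911).

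Among the 7 R403Q-CD mice, levels were also set against Nppa, whose level varied from 883 to 11000 CPM. Of the 10 relations 2 passed by Pearson's r, Ulk1 (r = -0.94, exact permutation p = 0.00694, adjusted p = 0.0347) and Tsc2 (r = -0.87, exact permutation p = 0.00655, adjusted p = 0.0347). By Spearman's rho they were -0.68 and -0.79, both with an adjusted p of 0.432. Without the 2 mice farthest in Nppa, replicates 2 and 5, r was -0.39 for Ulk1 and -0.64 for Tsc2. With 5 mice the smallest exact permutation p is 0.00833, at which a single relation of 10 cannot pass after adjustment, so that the relation without those mice could not be tested.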

How the data were processed

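Poly(A) RNA from frozen left ventricle was sequenced as read pairs in 21 mice. The authors aligned the pairs to mm10 with STAR 2.6.0c and deposited raw counts per gene, made with featureCounts (Subread 1.6.2) from uniquely aligned proper pairs on an Ensembl annotation without mitochondrial genes. The deposited log2 values are variance-stabilized by the authors with DESeq2 1.32.0. Depth was 23491535 to 43539684 counts per mouse. Symbols, exon lengths and positions came from GENCODE M21 (GRCm38).

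Counts were tested with edgeR 4.0.16 (R 4.3.3), with all 4 groups in 1 fit, TMM scaling, filterByExpr with a minimum count of 10, the quasi-likelihood F test and a Benjamini-Hochberg adjusted p under 0.05 over 17309 genes. Of the 7 comparisons, those with the same groups share mice. Ratios (0.5 added to counts) and relations used permutation tests (scipy 1.17.1; exact for group differences and for Nppa, 100000 resamples otherwise). The edgeR test was tried on simulated counts with 200 genes changed by about 1 on the log2 scale. It recovered 90 to 94.5% of them, and 2.7 to 8.7% of its calls were wrong. Changes as small as those of the 10 genes were not simulated. Alternatives were DESeq2 1.42.0, other scalings, no filter, limma 3.58.1 on the variance-stabilized values, 3 groups, cage as a factor, and leaving out each mouse. Replicate numbers follow the order of the samples and pair no mice. The genes and lists were chosen with earlier results of these data known, and the relations between members and with library measures after the data were seen. Of each list, the genes that passed were named, at most 4 with the smallest p, or else the gene with the smallest p in each of 2 comparisons, R403Q-CD against WT-CD and R403Q-EMPA against R403Q-CD. For the 3 members with the smallest p, the 3 genes closest by Pearson's r were also to be named, and 1 of these is not reported here.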

Additional observations from a re-analysis of the deposited data

Results flagged for a closer look

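In 40 groups of values (10 genes in 4 groups), a mouse lay far from the others of its group by Dixon's criterion in 2, where chance gives about 2. Rictor had 46.6 CPM in R403Q-EMPA replicate 4, against 35.4 to 36.5 CPM in the other 3 mice. Ulk1 had 139 CPM in WT-CD replicate 4, against 107 to 114 CPM in the other 4 mice.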

How the results depend on the processing

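None of 1450 recomputed log2 fold changes of the 10 genes changed sign where the main value had passed or had an unadjusted p under 0.05, 1441 stayed on the same side of the threshold, and 50 that were short of it changed sign. In EMPA against CD averaged over genotypes, where 0 of the 10 genes passed, DESeq2 gave 1 (Deptor), and leaving out a mouse gave 0 to 3. In R403Q against WT averaged over diets leaving out a mouse gave 0 to 1. The number of genes related to Nppa went from 2 to 0 without the 2 mice farthest in Nppa, where 5 mice are too few for a single relation to pass. The cause of the other changes was not tested. The counts for the other 5 comparisons were 0 under every alternative run, and so were the ratios, most of which could not pass singly in groups of this size. Over all genes, DESeq2 called 971, 145, 114 and 297 genes in R403Q-CD against WT-CD, R403Q-EMPA against R403Q-CD, WT-EMPA against WT-CD and R403Q-EMPA against WT-EMPA, where edgeR called 250, 2, 5 and 10, and 984 in place of 504 for EMPA averaged over genotypes. The fit of 3 groups called 98 and 0 in the first pair of comparisons, and cage as a factor called 19 and 6 in R403Q-CD against WT-CD and R403Q-EMPA against WT-EMPA, fitted within each diet, and 2111 in place of 1883 for R403Q averaged over diets, fitted on all mice. Library size alone called 5 and 0 in R403Q-EMPA against R403Q-CD and WT-EMPA against WT-CD, and no filter called 314 for EMPA averaged. With a mouse left out in turn, the calls over all genes ran from 31 to 1045 in R403Q-CD against WT-CD, 0 to 12 in R403Q-EMPA against R403Q-CD, 0 to 7 in WT-EMPA against WT-CD, 1 to 64 in R403Q-EMPA against WT-EMPA, 961 to 2764 for R403Q averaged over diets and 122 to 929 for EMPA averaged over genotypes. No paired analysis was possible because the labels number no replicates and each mouse gave 1 sample, and cage was used as a block instead.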
